A study of Rattus norvegicus with 8 samples.

Results

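The Bcl2 family decides whether the outer membrane of the mitochondrion stays closed. The 10 rat genes described here were *Bad*, *Bid*, *Bcl2l11*, *Bbc3*, *Bax*, *Bak1*, *Bcl2*, *Bcl2l1*, *Bcl2l2* and *Mcl1*, found by their NCBI gene identifiers among the 22601 genes measured, and all 10 were tested. *Bad* was selected on its rise in these same libraries, so its difference from the control group is given as a description with no test. Its 9 relatives were compared between the groups to ask whether any of them shared that rise.

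Hippocampal mRNA of 8 wild-type Wistar rats, bought at 180 to 220 g, was sequenced, with 1 library per rat. The Con. group (n = 3) received saline and then vehicle. The PTZ group (n = 3) received pentylenetetrazole (PTZ), a convulsant that blocks GABA-A receptors, at 35 mg/kg every 48 h for 28 days with 60 mg/kg on the last day, and then vehicle. The Q808 group (n = 2) received the same PTZ course and then Q808, an anticonvulsant candidate, at 30 mg/kg by gavage each day for 28 days. All PTZ and Q808 rats received a further sub-convulsive dose of PTZ before the hippocampi were taken, so the effects of the course and of the last injection cannot be told apart. No group received Q808 without PTZ. The rats' age was not given in the sources used here.

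Expression was given as FPKM (fragment counts scaled to transcript length and to the mapped fragments of the library), in 1 value per gene, so the isoforms of a gene could not be told apart. The files hold no counts, so the number of fragments behind each value is not known from them. Markers of striatum, a neighbouring brain region, were high in 3 libraries, replicate 3 of Con., replicate 3 of PTZ and replicate 1 of Q808. Their mean log2(FPKM + 0.1) over 6 genes was 6.20 to 7.35 there and 1.56 to 2.48 in the other 5 libraries. The mean of 6 dentate granule cell markers was lower in the same 3 libraries, at 0.90 to 1.44 against 2.45 to 2.79. Of these markers, *Prox1* and *C1ql2* were lower in all 3, and the others overlapped. *Calb1* had its highest value, 112 FPKM, in replicate 3 of PTZ. Each group holds 1 of the 3 libraries with high striatum markers, and results are given with and without them. In whole tissue, a change in the number of cells of a type and a change in RNA per cell cannot be told apart.

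The family has 3 classes. *Bax* and *Bak1* form the pores that let cytochrome c out of the mitochondrion and so start the caspases. *Bcl2*, *Bcl2l1* (Bcl-xL), *Bcl2l2* (Bcl-w) and *Mcl1* are the guardians, which bind the pore formers and hold them in check. The BH3-only proteins *Bad*, *Bid*, *Bcl2l11* (Bim) and *Bbc3* (Puma) tip this balance by occupying the guardians, and *Bid* and *Bcl2l11* can also activate the pore formers. *Bad* is known to bind Bcl2, Bcl-xL and Bcl-w but not Mcl1, and it is held inactive when kinases phosphorylate it and 14-3-3 proteins bind it. Only mRNA was measured here, not protein or phosphorylation.

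The upstream sequences of 3 members are shown because these had every PTZ library above every Con. library. The share of all genes with that pattern was not counted, so it served only to choose the sequences. Each is the 250 bases that end just before the start of the RefSeq gene on the rat genome build GRCr8, read on the plus strand, which is the strand of all 3 genes. Capitals mark matches on either strand to any of the 8 short motifs searched: TGACGTCA (CREB), TGACTCA (AP-1), CACGTG (E-box), TTCNNNGAA (STAT type), TGTTTAC (forkhead), GGGCGG (GC box), CCAAT and TATAAA.
Bad, chr1:213562864-213563113: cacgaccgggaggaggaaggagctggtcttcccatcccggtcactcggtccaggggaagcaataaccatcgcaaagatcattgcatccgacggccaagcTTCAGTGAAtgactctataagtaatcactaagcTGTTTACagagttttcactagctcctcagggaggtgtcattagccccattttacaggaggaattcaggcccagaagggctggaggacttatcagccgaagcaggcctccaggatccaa
Mcl1, chr2:185907918-185908167: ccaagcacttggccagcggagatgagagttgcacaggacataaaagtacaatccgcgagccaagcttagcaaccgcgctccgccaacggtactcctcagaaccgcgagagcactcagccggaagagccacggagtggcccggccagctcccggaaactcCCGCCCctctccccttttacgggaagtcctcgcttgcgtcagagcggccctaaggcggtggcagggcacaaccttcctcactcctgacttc
Bcl2l11, chr3:135819792-135820041: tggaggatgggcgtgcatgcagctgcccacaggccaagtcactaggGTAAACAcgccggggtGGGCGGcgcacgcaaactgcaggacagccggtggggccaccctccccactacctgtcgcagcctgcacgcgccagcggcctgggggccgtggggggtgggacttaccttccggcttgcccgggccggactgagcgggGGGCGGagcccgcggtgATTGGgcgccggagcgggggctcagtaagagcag
The *Bad* window held a STAT-type match, TTCAGTGAA, that starts 151 bases before the gene, and a forkhead match, TGTTTAC, that starts 118 bases before it. STAT-type matches occurred in 7.67% of all 33469 windows of this length and forkhead matches in 3.22%. Of the 8 members in the promoter table, *Bcl2l1* also held the STAT-type letters and *Bcl2l11* the forkhead letters. The *Mcl1* window held neither, and its 1 match was a GC box, which 30.5% of all windows hold. No member window held the CREB, AP-1 or E-box letters, found in 1.59%, 4.05% and 5.59% of all windows. *Bax* and *Bbc3* were not in the table. GC content was 52.4% for *Bad*, 62.0% for *Mcl1* and 72.0% for *Bcl2l11*, against a median of 51.2% over all windows. A match is a description of letters and not a binding site.

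In the Con. group *Bad* stood at 3.65, 4.10 and 3.99 FPKM in replicates 1 to 3. It stood at 27.6, 24.1 and 17.0 FPKM in the PTZ group and at 17.6 and 30.1 FPKM in the Q808 group. The Con. libraries lay close together, and all 5 PTZ and Q808 libraries lay far above them, the lowest of the 5 at 4.15 times the highest Con. value. The mean was 3.91 ± 0.234 FPKM (SD, n = 3) in Con., 22.9 ± 5.37 (SD, n = 3) in PTZ and 23.8 ± 8.79 (SD, n = 2) in Q808. These means were 5.85 times the Con. mean in PTZ and 6.09 times in Q808. On the scale of log2(FPKM + 0.1), on which every fold change here is given, *Bad* was 2.49 (SE 0.21) above Con. in PTZ and 2.53 (SE 0.26) in Q808.

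**Figure D1:**
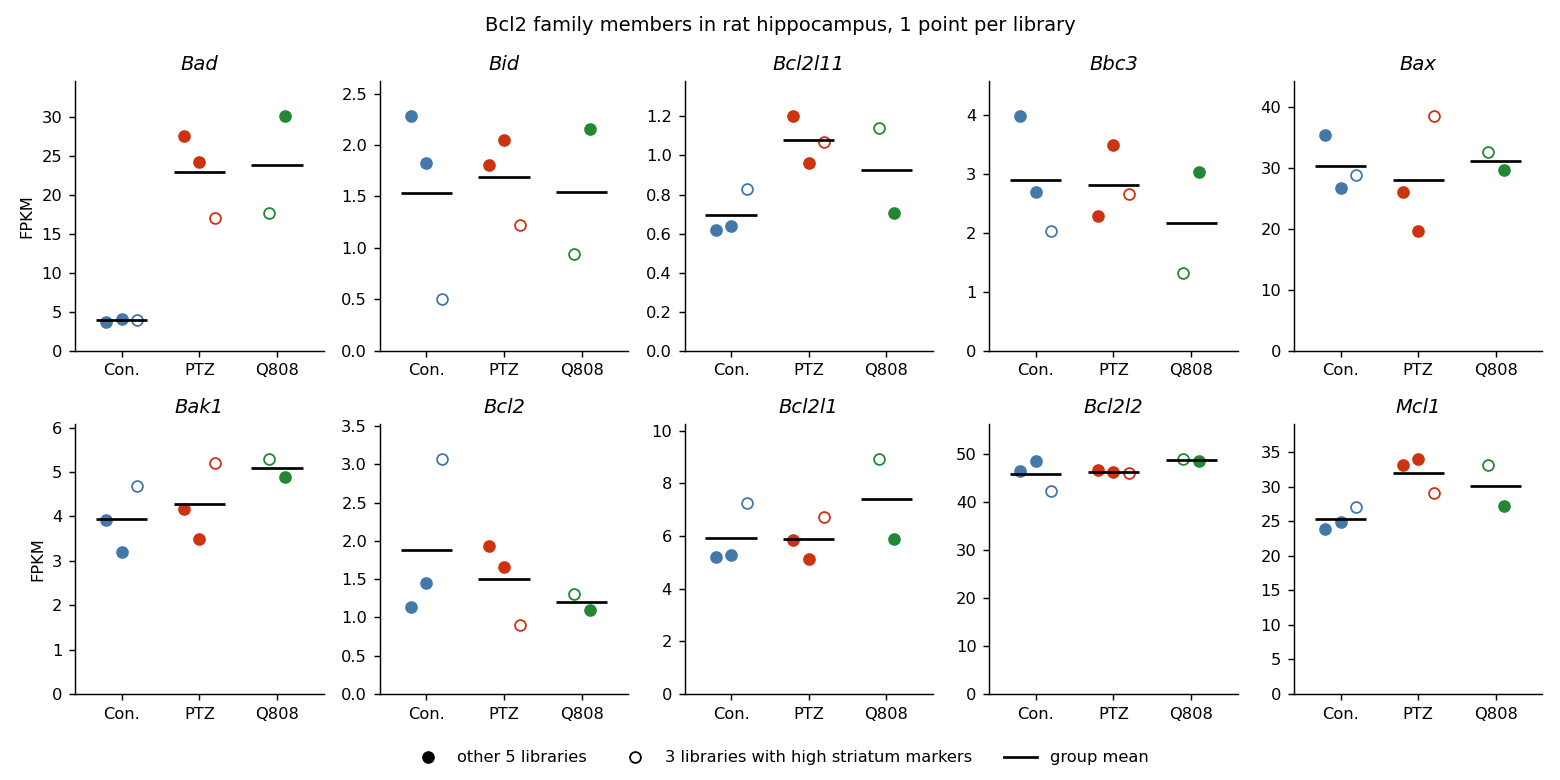
FPKM of the 10 family members (linear axes from 0, 1 panel per gene) in the Con., PTZ and Q808 libraries. Each point is 1 library, open points are the 3 libraries with high striatum markers, and lines are group means; *Bad* is the gene whose groups stand far apart, at 3.65 to 4.10 FPKM in Con. and 17.0 to 30.1 FPKM in the others.

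The level of *Bad* did not separate the Q808 rats from the PTZ rats. The Q808 minus PTZ difference was 0.035 on the log2 scale (SE 0.31, 95% interval -0.72 to 0.79, limma adjusted p = 0.988), and the 2 groups overlapped. Within PTZ and within Q808, the lower *Bad* values, 17.0 and 17.6 FPKM, were those of the libraries with high striatum markers. Without the 3 such libraries *Bad* was 2.71 above Con. in PTZ and 2.92 in Q808 on the log2 scale, and among the 3 alone it was 2.07 and 2.12 above.

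Few genes rose as far as *Bad*. Its log2 rise from the 3 Con. libraries to the 5 PTZ and Q808 libraries was 2.51. Of 15593 genes tested, 6 had a larger rise, and falls of that size were not counted. In 3 of these 6 all PTZ and Q808 libraries lay above all Con. libraries: *Hbe1*, an embryonic globin, at 3.41, an unnamed gene at 3.11, and *Maff*, a small Maf transcription factor, at 2.53. *Bad* also changed its place within the family. By FPKM it was the fifth to the seventh of the 10 members in the Con. libraries and the second to the fourth in the others. Its share of the summed FPKM of the 10 members was 2.88 to 3.44% in Con. and 11.5 to 19.6% in the PTZ and Q808 libraries.

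None of the 9 relatives shared this rise. A gene was called when its limma p was under 0.05 before adjustment and its change exceeded 1.5-fold, and 0 of 9 relatives were called in each of the 4 comparisons. Over all genes 2.53% were called in PTZ against Con., 1.92% in Q808 against PTZ, 3.46% in Q808 against Con. and 2.25% in PTZ and Q808 together against Con. With replicate numbers as blocks 3.95% were called in PTZ against Con. (616 genes against 395 without), and again 0 of 9 relatives. With such shares, 0 of 9 is near the background. At p under 0.05 with no fold threshold, 1 relative passed in PTZ against Con., 0 in Q808 against PTZ, 0 in Q808 against Con. and 1 in both together against Con., *Mcl1* each time.

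The size of the changes says more than the absence of calls. The 9 relatives had a median log2 change of 0.018 (PTZ against Con.), -0.091 (Q808 against PTZ), 0.12 (Q808 against Con.) and 0.13 (both against Con.). Over all genes tested these medians were -0.041, 0.097, 0.045 and -0.005. The 95% interval of every relative ended below the log2 change of *Bad* in the 3 comparisons with Con. The highest upper bound was that of *Bid*, at 1.61 for PTZ, 1.88 for Q808 and 1.31 for both together. A rise as large as the estimate for *Bad* thus lay outside the interval of each relative. That estimate has its own error, and *Bad* was selected on its rise. In Q808 against Con. the 95% interval of *Bad*, 1.87 to 3.18, overlapped that of *Bid*. The intervals span smaller changes in both directions for all relatives but *Mcl1* in PTZ against Con. and in both against Con.

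**Figure D2:**
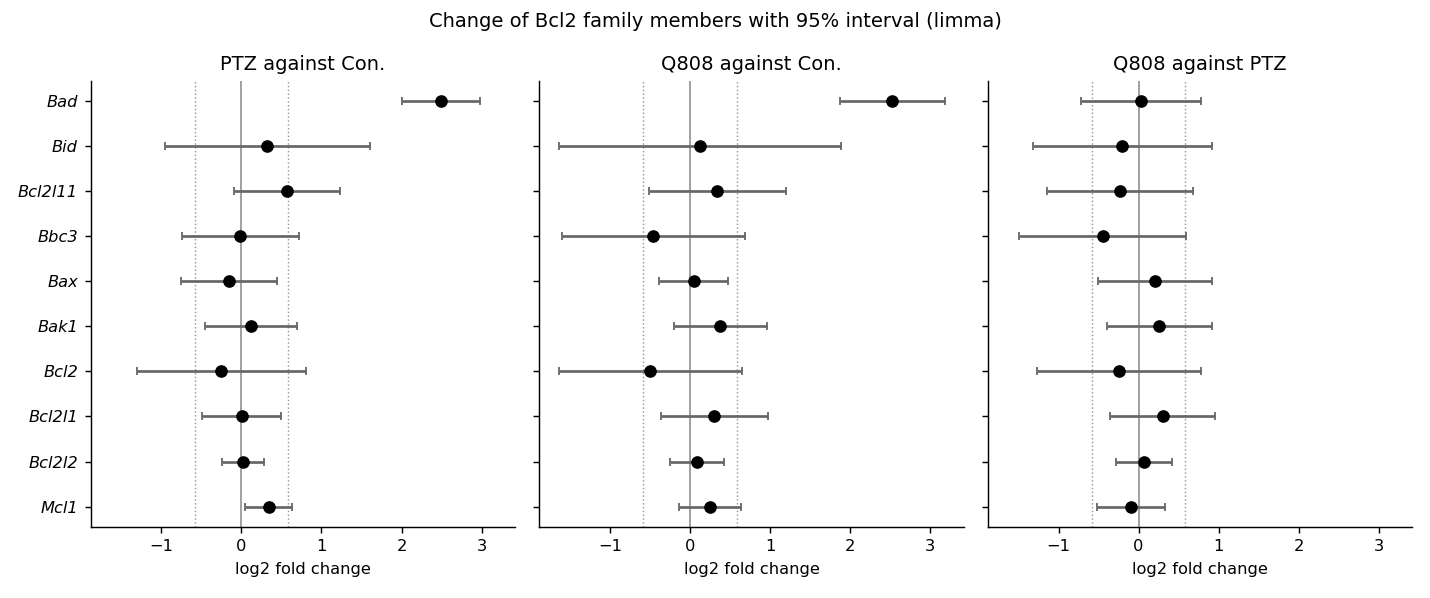
Difference of each family member on the log2(FPKM + 0.1) scale (points) with its 95% limma interval (bars) in PTZ against Con., Q808 against Con. and Q808 against PTZ. Dotted lines mark a 1.5-fold change; *Bad* stands alone near 2.5 in both comparisons with Con., where the point of the next highest relative, *Bcl2l11*, is at 0.57 in PTZ.

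Among the other BH3-only genes, *Bcl2l11*, which encodes Bim, was the nearest to *Bad* in direction. It stood at 0.617, 0.639 and 0.830 FPKM in Con., at 1.20, 0.961 and 1.07 FPKM in PTZ and at 1.14 and 0.707 FPKM in Q808. All PTZ libraries lay above all Con. libraries, a pattern whose share over all genes was not counted. Replicate 2 of Q808 lay inside the Con. range. The log2 difference was 0.57 in PTZ against Con. (95% interval -0.09 to 1.23, limma adjusted p = 0.999) and 0.34 in Q808 against Con. (-0.52 to 1.20, adjusted p = 0.901). It was called in 2 alternative fits, at 0.61 in PTZ against Con. with median ratio scaling and at 0.59 in both against Con. without replicate 2 of Q808, each with a limma adjusted p of at least 0.994.

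*Bid*, the BH3-only protein that caspase-8 cuts, stood at 2.28, 1.83 and 0.50 FPKM in Con., at 1.81, 2.05 and 1.22 FPKM in PTZ and at 0.94 and 2.15 FPKM in Q808. The groups overlapped, and the 3 lowest values were those of the 3 libraries with high striatum markers. *Bbc3*, which encodes Puma, stood at 3.98, 2.70 and 2.03 FPKM in Con., at 2.30, 3.49 and 2.66 FPKM in PTZ and at 1.31 and 3.04 FPKM in Q808. Its groups overlapped too, and its log2 difference was -0.01 in PTZ against Con. (95% interval -0.75 to 0.72). The summed FPKM of *Bid*, *Bcl2l11* and *Bbc3* was 3.37 to 6.88 in Con. and 3.39 to 6.51 in the other 5 libraries, so that *Bad* exceeded the other 3 BH3-only genes together in every PTZ and Q808 library but not in 2 of the 3 Con. libraries.

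Neither pore former was called. *Bax* stood at 35.5, 26.7 and 28.9 FPKM in Con., at 26.1, 19.6 and 38.6 FPKM in PTZ and at 32.6 and 29.6 FPKM in Q808. Its lowest and its highest value both fell in the PTZ group. The log2 difference was -0.16 in PTZ against Con. (95% interval -0.76 to 0.44), and it was -0.44 in the 4 of these libraries with low striatum markers and 0.42 in the other 2. *Bak1* ran from 3.19 to 4.68 FPKM in Con., from 3.49 to 5.21 FPKM in PTZ and from 4.89 to 5.29 FPKM in Q808. Both Q808 values lay above the Con. range, a pattern whose share over all genes was not counted. The log2 difference in Q808 against Con. was 0.38 (95% interval -0.20 to 0.96, limma adjusted p = 0.901).

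*Mcl1* was the only guardian with a limma unadjusted p under 0.05 in a main fit. *Mcl1*, a short-lived guardian needed for the survival of many cell types, stood at 23.9, 24.8 and 27.0 FPKM in Con., at 33.1, 33.9 and 29.1 FPKM in PTZ and at 33.1 and 27.2 FPKM in Q808. All 5 PTZ and Q808 libraries lay above all Con. libraries, the closest pair being 27.2 against 27.0 FPKM. The log2 difference was 0.34 in PTZ against Con. (SE 0.12, 95% interval 0.05 to 0.63, limma unadjusted p = 0.028, adjusted p = 0.999), a fold of 1.26 that stayed under the 1.5-fold threshold. In Q808 against Con. it was 0.25 (95% interval -0.13 to 0.63, limma adjusted p = 0.901). Without the 3 libraries with high striatum markers it was 0.46 in PTZ against Con. (limma unadjusted p = 0.0027, adjusted p = 0.104).

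Having every PTZ and Q808 library above every Con. library was seen for 1 of the 9 relatives, *Mcl1*, and for *Bad*. Over all genes 2.02% had this pattern and 1.78% had the opposite one, which no family member had. For *Mcl1* the change was small, and for *Bad* it was large.

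*Bcl2l2*, the member with the highest FPKM in every library, had the narrowest relative range over the 8 libraries. It stood at 46.5, 48.6 and 42.3 FPKM in Con., at 46.7, 46.1 and 46.0 FPKM in PTZ and at 48.8 and 48.4 FPKM in Q808. Its log2 difference was 0.02 in PTZ against Con. (95% interval -0.24 to 0.28) and 0.09 in Q808 against Con. (-0.25 to 0.43). *Bcl2l1*, whose product is a main partner of Bad, stood at 5.20, 5.28 and 7.25 FPKM in Con., at 5.84, 5.14 and 6.72 FPKM in PTZ and at 8.91 and 5.88 FPKM in Q808. The 3 libraries with high striatum markers held its 3 highest values. *Bcl2* itself was low, at 1.13, 1.46 and 3.06 FPKM in Con., at 1.93, 1.66 and 0.91 FPKM in PTZ and at 1.31 and 1.09 FPKM in Q808. Its difference between PTZ and Con. differed in direction between the libraries with low and high striatum markers, being 0.45 on the log2 scale in the 4 libraries with low striatum markers and -1.65 in the other 2.

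**Figure D3:**
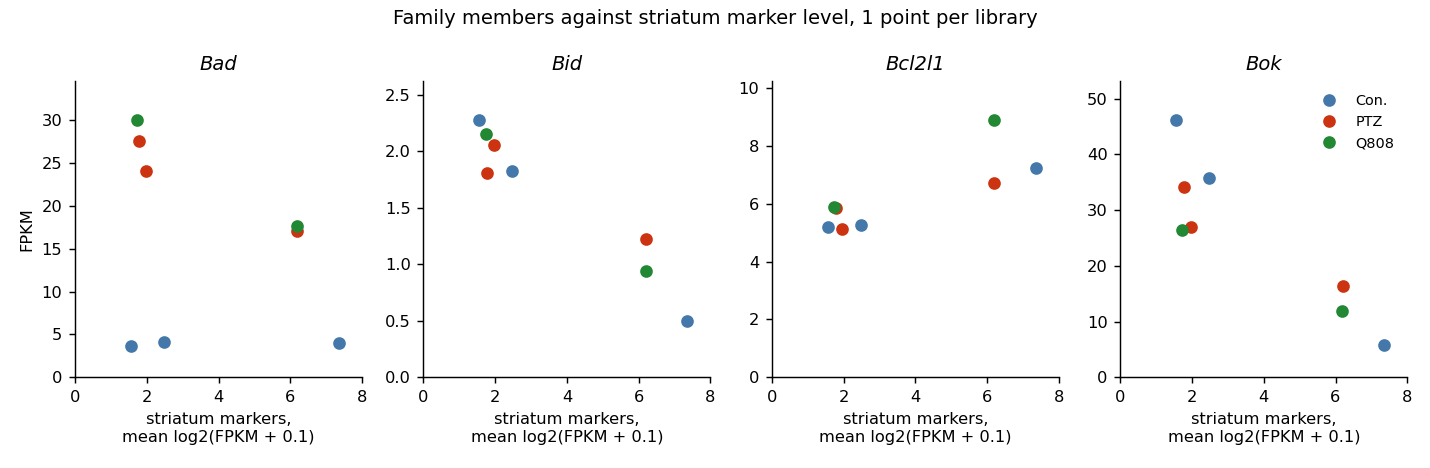
FPKM of *Bad*, *Bid*, *Bcl2l1* and *Bok* (vertical axes from 0) against the mean log2(FPKM + 0.1) of 6 striatum markers, 1 point per library coloured by group. The 3 libraries at 6.20 or more on the horizontal axis hold the lowest *Bid* and *Bok* and the highest *Bcl2l1* values, while *Bad* in Con. stays at 3.65 to 4.10 FPKM at either end.

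Set against its binding partners, *Bad* mRNA moved from below to above that of *Bcl2l1*. The ratio of FPKM of *Bad* to *Bcl2l1* was 0.550 to 0.776 in Con. and 1.98 to 5.11 in the PTZ and Q808 libraries. The ratio to *Bcl2* was 1.30 to 3.23 in Con. and 13.5 to 27.5 in the others, and the ratio to *Bcl2l2* 0.0786 to 0.0944 and 0.361 to 0.621. The ratio to *Mcl1*, which Bad does not bind, was 0.148 to 0.165 and 0.533 to 1.11.

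The guardians together still exceeded *Bad* in every library. Their summed FPKM was 76.7 to 80.2 in Con. and 82.6 to 92.1 in the PTZ and Q808 libraries, and *Bad* came to 0.0476 to 0.0512 of it in Con. and 0.191 to 0.364 in the others. The *Bax* to *Bcl2* ratio, a common index of the balance between death and survival, overlapped between the groups, at 9.42 to 31.3 in Con. and 11.8 to 42.5 in the others. The ratios that contain *Bad* share its values given above and are no separate evidence of its rise.

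**Figure D4:**
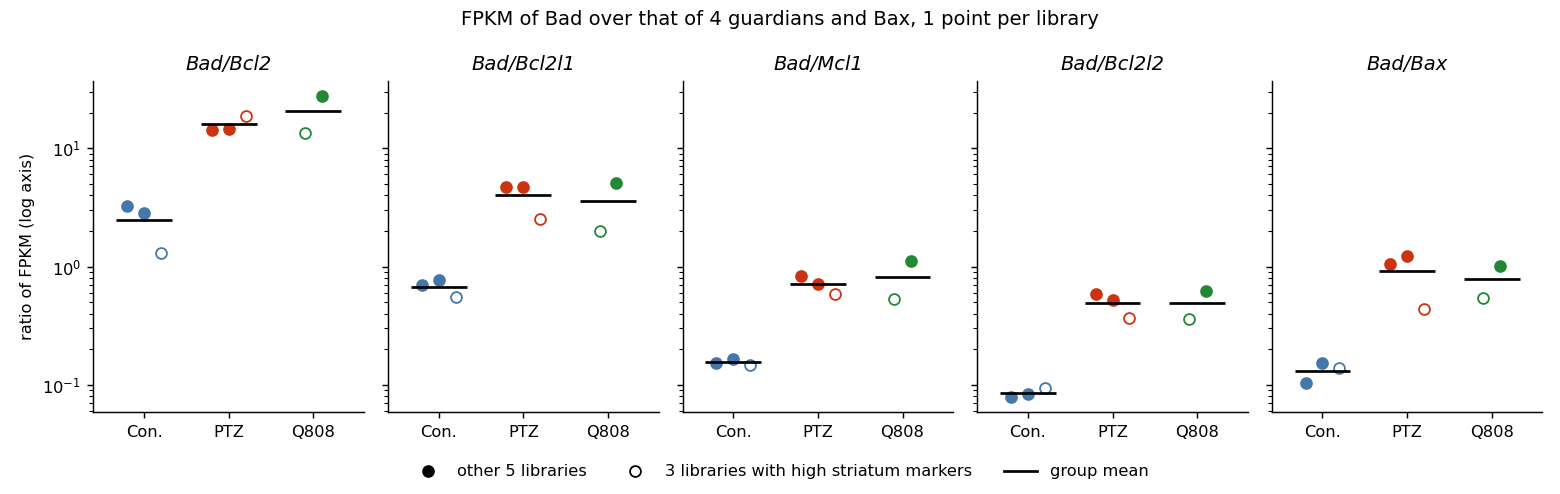
Ratio of the FPKM of *Bad* to that of *Bcl2*, *Bcl2l1*, *Mcl1*, *Bcl2l2* and *Bax* in each library (log axis), by group, with open points for the 3 libraries with high striatum markers and lines for group means. In all 5 panels the PTZ and Q808 libraries lie above the Con. libraries; the *Bad* to *Bcl2l1* ratio crosses 1, from at most 0.776 in Con. to at least 1.98.

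The wider apoptosis pathway was described with 5 lists. The other Bcl2 relatives (11 of 13 listed genes tested) had 0 calls in all 4 comparisons. Among them *Pmaip1*, which encodes the BH3-only protein Noxa, reached p under 0.05 in PTZ against Con. with a log2 difference of 0.48 (limma adjusted p = 0.999). *Bok*, a pore-former relative, ran from 26.4 to 46.2 FPKM in the 5 libraries with low striatum markers and from 5.88 to 16.4 FPKM in the other 3.

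Of the genes that act after the pore opens (16 of 17 tested), such as *Cycs*, *Apaf1* and *Casp9*, 1 rose and 0 fell in PTZ against Con. The riser was *Birc3*, an inhibitor of apoptosis protein, at 0.071 to 0.197 FPKM in Con. and 0.204 to 0.393 FPKM in the other 5 libraries. Its log2 difference was 0.98 in PTZ against Con. (limma adjusted p = 0.999) and 0.87 in both against Con. In PTZ against Con. the call was lost without replicate 2 or 3 of Con. or replicate 1 or 2 of PTZ (0.80 to 1.20 with 1 library left out), and in both against Con. without replicate 2 or 3 of Con. (0.70 to 1.09). Without the 3 libraries with high striatum markers it was called in neither, at 0.86 and 0.67.

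The kinases and phosphatases that act on Bad (16 tested) gave 2 higher calls in PTZ against Con., both Pim kinases, which phosphorylate Bad. *Pim1* stood at 1.19, 1.45 and 1.67 FPKM in Con., at 9.64, 23.5 and 1.60 FPKM in PTZ and at 2.39 and 1.77 FPKM in Q808. It was thus high in only 2 of the 3 PTZ libraries, while *Bad* was high in all 3 and in both Q808 libraries. The log2 difference of *Pim1* was 2.26 in PTZ against Con. (limma adjusted p = 0.999), a call lost on leaving out any 1 of the 6 libraries but replicate 3 of PTZ (1.42 to 3.32). Without the 3 libraries with high striatum markers it was 3.43 (limma adjusted p = 0.039). *Pim3* differed by 0.65 (adjusted p = 0.999), a call lost with replicate numbers as blocks (unadjusted p = 0.070, adjusted p = 0.796, limma) and without replicate 1 or 2 of Con. or of PTZ (0.43 to 0.88).

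*Ppp3ca*, the catalytic subunit of calcineurin, which removes phosphate from Bad, moved the other way. It stood at 356, 314 and 342 FPKM in Con., at 282, 233 and 228 FPKM in PTZ and at 179 and 247 FPKM in Q808. All 5 PTZ and Q808 libraries lay below all Con. libraries. Its log2 difference from Con. was -0.45 in PTZ, under the fold threshold, and -0.68 in Q808, where it was called (limma adjusted p = 0.901). Without the 3 libraries with high striatum markers the latter was -0.44 and not called, and the call was also lost without replicate 1 or 2 of Con. or replicate 1 of Q808 (-0.91 to -0.45 with 1 library left out).

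The 14-3-3 proteins (7 tested), which hold phosphorylated Bad in the cytosol, and the regulators of BH3-only genes (7 of 8 listed tested), such as *Foxo3*, *Ddit3* and *Jun*, gave 0 calls in all 4 comparisons. *Foxo3*, a forkhead factor, differed by -0.01 in PTZ against Con. (95% interval -0.96 to 0.94). *Foxo1*, another forkhead factor, differed by -0.83 there (-2.18 to 0.53). It stood at 8.37, 10.3 and 36.8 FPKM in Con. and at 5.94 to 13.1 FPKM in the PTZ and Q808 libraries. Its high value was thus that of 1 library, replicate 3 of Con., which has high striatum markers. Over the 57 genes of the 5 lists, 3 rose and 0 fell in PTZ against Con., which is 5.26% beside the 2.53% of all genes. In Q808 against PTZ 0 were called, in Q808 against Con. 1 fell, and in both against Con. 1 rose, which is 0%, 1.75% and 1.75% beside 1.92%, 3.46% and 2.25% of all genes. With replicate numbers as blocks 3 rose and 1 fell in PTZ against Con. (7.02%, beside 3.95% of all genes). *Ddit3*, which rose, and *Foxo1*, which fell, were called in place of *Pim3*. Without the 3 libraries with high striatum markers 4 rose and 0 fell there, *Pim1*, *Pim3*, *Ddit3* and *Jun*, and in Q808 against PTZ 1 rose and 5 fell. These are 7.02% and 10.5% of the 57 genes, beside 9.81% and 9.26% of all genes called without those libraries.

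**Figure D5:**
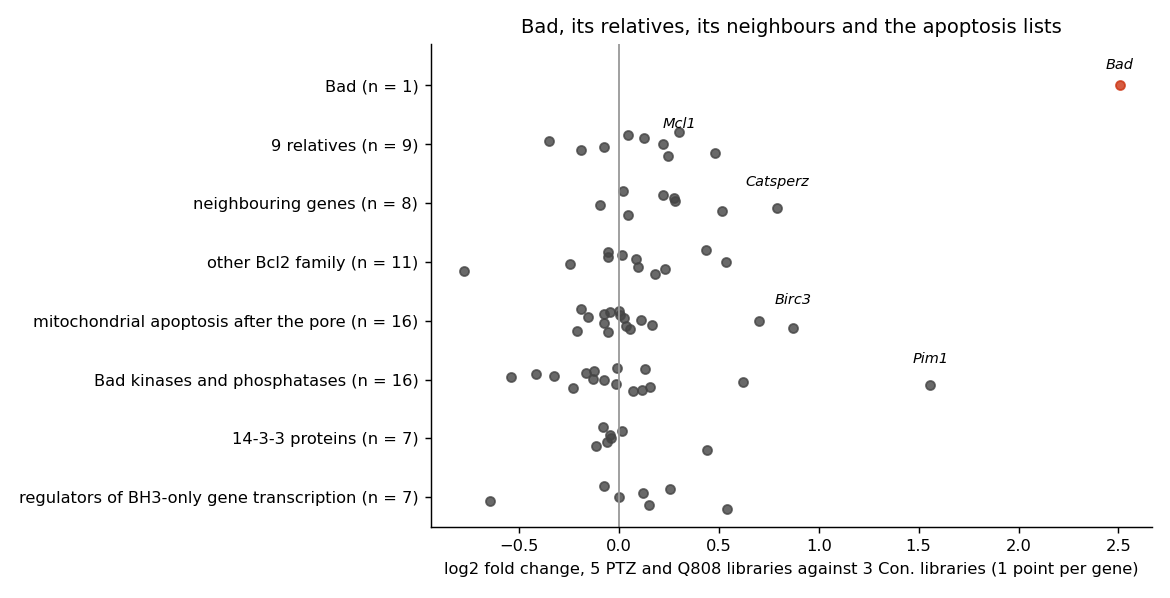
Log2 difference between the 5 PTZ and Q808 libraries and the 3 Con. libraries for *Bad*, its 9 relatives, its 8 measured neighbouring genes and 5 apoptosis lists (rows, n = genes tested; 1 point per gene). *Bad* lies at 2.51, and the next point, *Pim1*, lies at 1.56 and rests on 2 libraries.

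The genes beside *Bad* on its chromosome were also read. Of the 5 nearest genes on each side in the RefSeq gene table, the files held 8, and none of them overlapped *Bad*. The immediate neighbours did not follow it. *Gpr137*, an orphan receptor gene, stood at 54.0 ± 5.33 FPKM (SD, n = 3) in Con., at 56.9, 53.0 and 52.0 FPKM in PTZ and at 59.4 and 57.0 FPKM in Q808, and differed from Con. on the log2 scale by 0.003 in PTZ and by 0.11 in Q808. *Plcb3*, a phospholipase C gene on the other side, differed by 0.19 and 0.42, neither of them called. The outer neighbours *Esrra*, *Ppp1r14b*, *Fkbp2* and *Vegfb* were called in no comparison and differed by -0.09 to 0.28 in both against Con.

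Of the 8 neighbours 0 were called in PTZ against Con., 0 in Q808 against PTZ, 2 in Q808 against Con. and 1 in both against Con., beside 2.53%, 1.92%, 3.46% and 2.25% of all genes. *Catsperz*, a sperm ion channel subunit gene, stood at 5.52 to 6.61 FPKM in Con., at 6.58, 8.67 and 15.4 FPKM in PTZ and at 15.8 and 9.83 FPKM in Q808. Its log2 difference was 1.02 in Q808 against Con. (limma adjusted p = 0.901) and 0.79 in both against Con., and its 2 highest values lay in libraries with high striatum markers. The call in both against Con. was lost without replicate 2 of Con. (0.65 to 0.96 with 1 library left out) and without the 3 libraries with high striatum markers (0.49). In Q808 against Con. the *Catsperz* difference was 0.679 to 1.355 with 1 library left out, and 0.735 without those 3. Its 0.64 in PTZ against Con. was not called, but was with replicate numbers as blocks. *Kcnk4*, a potassium channel gene, ran from 4.21 to 4.89 FPKM in Con. and from 5.46 to 7.91 FPKM in the others, with all 5 above. It differed by 0.43 in PTZ against Con. and by 0.64 in Q808 against Con. (limma adjusted p = 0.901), and the latter was not called without the 3 libraries, nor without replicate 1 or 2 of Con. or replicate 1 of Q808 (0.47 to 0.80 with 1 library left out).

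Some genes from elsewhere in the genome followed *Bad* over the 8 libraries more closely than any relative with a mean of at least 1 FPKM did. *Bcl2l11*, with a mean of 0.896 FPKM, was not correlated with *Bad*, as it lay under that filter. Among the 12563 genes with a mean of at least 1 FPKM, the 5 with the highest Pearson r with *Bad* on the log2 scale were *Fcgr2a* (an Fc receptor) at 0.96, *Lrrc32* at 0.95, *Thbd* (thrombomodulin) at 0.95, *Pomc* (the precursor of several peptide hormones) at 0.95 and *Emp1* at 0.94. Of the relatives with a mean of at least 1 FPKM, *Mcl1* had an r of 0.77 and the other 7 lay between -0.27 and 0.36. No r was computed for *Bcl2l11*. The 8 points share the group difference, so these values describe likeness over the libraries and carry no test. The 5 genes were low beside *Bad*: *Fcgr2a*, for example, ran from 1.12 to 1.36 FPKM in Con. and from 1.89 to 2.20 FPKM in the others.

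A set of marker genes separated the groups in the same direction as *Bad*. Of the 12 marker lists read, that of erythroid cells was the only one whose mean level was higher in all PTZ and Q808 libraries than in all Con. libraries, while that of leukocytes overlapped. The summed FPKM of its 6 genes was 356 to 945 in Con., 689 to 1188 in PTZ and 1610 to 2579 in Q808, so that Con. and PTZ overlapped in the sum, and none of the 6 was at 0 in every library. Of 5 genes of this list tested, 3 rose in PTZ against Con., 2 in Q808 against PTZ and 5 in Q808 against Con., beside 2.53%, 1.92% and 3.46% of all genes called. The erythroid genes were higher in Q808 than in PTZ, where *Bad* differed by 0.035 on the log2 scale. Their part in the level of *Bad* was not tested.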

How the data were processed

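Per the labels and the study's methods, the authors used Trimmomatic on the reads, mapped the remainder, computed FPKM per gene with Cufflinks and deposited 1 table of FPKM per library with 22601 genes, of which 20633 have a symbol. Bowtie2, HISAT2, HTSeq, SAMtools, StringTie and DESeq are also named in the submitters' processing notes. Versions and the genome build are not given in the sources used here. Poly(A) selection favours mRNA. No file holds counts, so the fragments behind each FPKM value are not known from the files and counting error was not computed.

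From there, log2(FPKM + 0.1) of the 15593 genes with a mean of at least 0.1 FPKM was fitted with limma 3.58.1 in R 4.3.3 (trend; each comparison on its own groups), with Benjamini-Hochberg adjustment over all genes tested. Calls needed a p under 0.05 before adjustment and a change over 1.5-fold. The fold change on this scale understates the change of low genes. The p-values set each group difference against the spread between these rats, estimated with information shared over all genes. The code was tested on simulated data for the size of its estimates, at a spread below the measured one. Its right and wrong calls were not judged there. Groups and replicate numbers came from the labels. No 2 libraries were identical, and Spearman correlations between libraries were 0.966 to 0.986.

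The members and lists were chosen with earlier results of these data known. Named were all 10 members, the 5 nearest genes on each side of *Bad*, pathway list genes called in any comparison, and the 5 genes most correlated with *Bad*. Genes outside that rule (*Hbe1*, *Maff*, *Pmaip1*, *Bok*, *Foxo3*, *Foxo1*, *Ddit3*, *Jun*) were named after their values were seen. Upstream sequences were read from a RefSeq table of build GRCr8.

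Deviations of same-numbered Con. and PTZ libraries from their group means correlated at 0.309, 0.392 and 0.472 over 12563 genes. Number 2 of Con. also correlated at 0.452 with number 1 of PTZ, above 0.309 and 0.392. The libraries numbered 3 in both groups have high striatum markers, and the labels do not say what the numbers mark. The numbers were used as pairs only in an alternative fit, the replicate block, and the main fits had no block. For number 1 of Q808 the correlation was -0.463 with Con. and -0.439 with PTZ, so the numbers were not taken as pairs there. Alternatives covered the pseudocount, the filter, the fold threshold, scaling, the fit, the replicate block, striatum markers and leaving out libraries.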

Additional observations from a re-analysis of the deposited data

How the results depend on the processing

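The log2 difference of *Bad* from Con. was 2.26 to 2.71 in PTZ, 2.14 to 2.92 in Q808 and 2.27 to 2.78 in both over all alternatives run, and its difference between Q808 and PTZ was -0.35 to 0.42. Of 644 values of the 9 relatives under the alternatives, 642 stayed uncalled and 2 were called, and 46 uncalled values had the other sign. Of the relatives, 0 were called in each comparison, and this moved to 1, *Bcl2l11*, in PTZ against Con. with median ratio scaling. In both against Con. the count was 0 to 1 with 1 library left out in turn, being 1, again *Bcl2l11*, without replicate 2 of Q808. The cause was not tested. The log2 difference of *Mcl1* stayed above 0 in PTZ against Con. under every alternative run, at 0.30 to 0.46, with a limma adjusted p of 0.104 to 1.00. The replicate block called 0 relatives in PTZ against Con. and, beside the calls named in the text, changed no other call of a member. Over all genes, called counts depended more on the settings. They were 395 in PTZ against Con. (191 to 1530 over the alternatives, 616 with the replicate block), 300 in Q808 against PTZ (132 to 1894, the latter with the block), 540 in Q808 against Con. (257 to 1799) and 351 in both against Con. (141 to 577). Quantile normalization changed the split of higher and lower calls from 212 and 88 to 130 and 142 in Q808 against PTZ, from 479 and 61 to 283 and 158 in Q808 against Con. and from 268 and 83 to 220 and 134 in both against Con. Fits that left 1 Q808 library assume that it varies like the other groups. With 2 or 3 rats per group, the 95% intervals give the precision of each difference.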
